A study of Mus musculus with 11 samples.

Results

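The pancreas holds islets of hormone-secreting cells scattered through the exocrine tissue, and 10 genes that islets express were followed here in obesity-related, alcohol-induced acute pancreatitis (OA-AP). They encode the islet hormones (Ins1, Ins2, Iapp, Gcg, Sst and Ppy) and factors of the insulin-secreting beta cell (Slc2a2, Pdx1, Mafa and Nkx6-1), and were found by gene symbol in the pancreas count table. All 10 symbols had 1 row there, out of 54532 genes listed. Pancreas RNA came from 2 control and 3 OA-AP libraries, and epididymal adipose tissue, which holds no islets, gave 3 libraries in each group as background. All mice were wild-type C57BL/6, given as male C57BL/6J in the study's methods, and were aged 16 weeks. Control animals were lean, with 12 weeks on chow of 10 kcal% fat and then saline injections. OA-AP animals had 12 weeks of high-fat diet with 60 kcal% fat and then ethanol at 2 g/kg in each of 2 intraperitoneal injections 1 h apart. Tissue was taken 12 h after the first injection. Diet and ethanol differ together between the groups, so their effects cannot be told apart. The labels do not show whether the libraries of a group come from separate animals, and p-values then measure only the spread between these samples, which may be technical.

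Beta cells make insulin, which mice carry as a pair of genes, Ins1 and Ins2, and they package islet amyloid polypeptide, the product of Iapp, in the same granules. Alpha cells secrete glucagon (Gcg), delta cells somatostatin (Sst) and PP cells pancreatic polypeptide (Ppy). Glucose enters the mouse beta cell through the transporter GLUT2, encoded by Slc2a2, and the transcription factors PDX1, MAFA and NKX6-1 sustain insulin transcription and beta cell identity.

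The control pancreas libraries held 14716716 and 14380578 counts, and the OA-AP libraries 14465769, 14188832 and 17238919. Most of these counts came from acinar cells, which make the digestive enzymes. A list of acinar genes, of which 52 of 54 were in the table, took 81.9% and 83.4% of the control counts and 67.6%, 70.2% and 69.3% of the OA-AP counts, with Ctrb1 the most abundant per kb of gene length. Library sizes were therefore scaled with edgeR's TMM factors, and levels are given as CPM, counts per 1000000 counts of the scaled library. Over all genes tested, the median log2 fold change went from 0.04 with TMM to 0.75 with library totals alone, a shift of 0.71, so library totals alone were run as an alternative for each gene and list. The part of the acinar share in these results was not tested. In bulk tissue, fewer cells of a type and less RNA per cell cannot be told apart.

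edgeR's quasi-likelihood test was run on the 12884 genes that passed a filter on low counts, all 10 islet genes among them. A gene was called changed when its Benjamini-Hochberg adjusted p-value was under 0.05 and its fold change at least 1.5. Iapp was called up, Slc2a2 and Pdx1 were called down, and 7 were not called. These 3 of 10 stand beside 29.8% of all tested genes called in either direction (16.2% up and 13.5% down), so the number of calls does not set the islet genes apart. The CPM of 6 of the 10 did not overlap between the groups, which held for 62.4% of all tested genes. With library totals alone 7 of the 10 did not overlap, beside 69.1%. The 10 had a median log2 fold change of −0.27, beside 0.04 over the whole table, and 0.43 beside 0.75 with library totals alone. With library totals alone the calls were 3 up (Ins1, Ins2 and Iapp) and 1 down (Slc2a2). Of all 12884 tested genes, 6345 were then called, 5839 up and 506 down. The upward share of all calls was then 92.0%, against 54.5% with TMM. Without control replicate 2 no islet gene was called, and without control replicate 1 only Slc2a2 was. The single control library left in those fits is assumed to vary like the OA-AP libraries. Of the 51 acinar genes tested, 26 were called down and 7 up, which is 64.7% called beside the same 29.8%, and with library totals alone 14 were called down and 9 up.

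**Figure D1:**
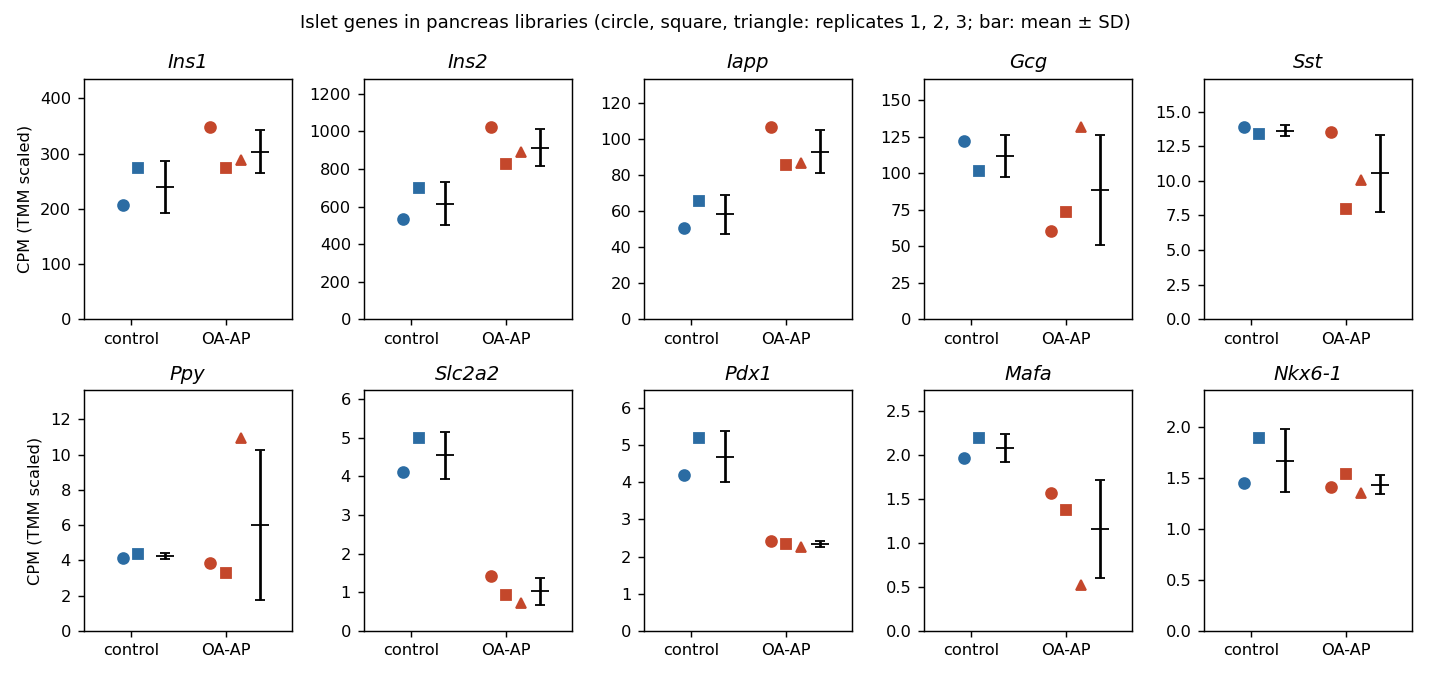
CPM of the 10 islet genes in each pancreas library, with linear axes that start at 0. Points are libraries (circle, square and triangle for replicates 1, 2 and 3), and bars show the mean ± SD of 2 control and 3 OA-AP libraries. Iapp lies higher and Slc2a2 and Pdx1 lie lower in every OA-AP library, and OA-AP replicate 3 has the highest Gcg and Ppy.

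The insulin genes were the most abundant of the 10, also per kb. Ins2 (ENSMUSG00000000215, chromosome 7 of GRCm38, 142678656 to 142743381) was at 533 and 696 CPM in the controls and at 1023, 829 and 890 CPM in OA-AP. Every OA-AP library was above both controls. The means were 615 ± 115 CPM (SD, n = 2) and 914 ± 99.5 CPM (SD, n = 3), and the log2 fold change was 0.57 (standard error, SE, 0.17, edgeR adjusted p = 0.0366). This 1.49-fold difference stayed below the fold threshold, and Ins2 was not called. It passed both thresholds with library totals alone (log2 fold change 1.30), without the filter on low counts (0.65) and without OA-AP replicate 2 (0.64), with adjusted p-values of 0.000164 to 0.287 over all alternatives.

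Ins1 (ENSMUSG00000035804, chromosome 19, 52264323 to 52265456) was at 206 and 273 CPM in the controls and at 348, 274 and 288 CPM in OA-AP. The groups did not overlap, but OA-AP replicate 2 lay just above control replicate 2. The log2 fold change was 0.34 (SE 0.17, edgeR adjusted p = 0.162) and was not called. Library totals alone gave 1.07 and a call (adjusted p = 0.000739, in a range of 0.000739 to 0.665 over the alternatives).

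Ins1 and Ins2 are close copies, so reads could in principle be shared between them. The annotated transcripts Ins1-201 (1062 bases) and Ins2-201 (478 bases) aligned over 479 columns with 86.8% of them identical. No window of 150 bases, the read length of the study, was common to Ins1-201 and any Ins2 transcript (0 of 913 windows), and of its 1013 windows of 50 bases 7 were. How the counting treated reads that fit both genes is not stated, so the split between the pair carries that uncertainty.

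Iapp (ENSMUSG00000041681, chromosome 6, 142298423 to 142303961) was at 50.7 and 65.8 CPM in the controls and at 107, 85.7 and 86.6 CPM in OA-AP. All 3 OA-AP libraries were above both controls, and the smallest gap was between control replicate 2 and OA-AP replicate 2. The mean rose from 58.3 ± 10.7 CPM in the controls (SD, n = 2) to 93.0 ± 11.9 CPM in OA-AP (SD, n = 3), 1.60-fold (log2 fold change 0.68, SE 0.17, edgeR adjusted p = 0.0183). The direction was the same under all 4 scalings, with 1.41 for library totals alone. The call was lost without control replicate 1 (adjusted p = 0.174), control replicate 2 (0.0554) or OA-AP replicate 1 (0.0795), in a range of 2.84e-05 to 0.174 over the alternatives.

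The hormones of the other islet cells were not called. Gcg (ENSMUSG00000000394, chromosome 2, 62474530 to 62483650) was at 122 and 101 CPM in the controls and at 60.8, 73.8 and 132 CPM in OA-AP. OA-AP replicates 1 and 2 lay below both controls and replicate 3 above both, so the groups overlapped. The log2 fold change was −0.33 (SE 0.32, edgeR adjusted p = 0.464), and it was 0.34 with library totals alone, where OA-AP replicates 1 and 2 lay between the controls. Without OA-AP replicate 3 it was −0.78 and called (adjusted p = 0.000214, in a range of 0.000214 to 0.809 over the alternatives).

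Ppy (ENSMUSG00000017316, chromosome 11, 102099930 to 102101319), the hormone of PP cells, was at 4.11 and 4.38 CPM in the controls and at 3.83, 3.26 and 10.9 CPM in OA-AP. OA-AP replicate 3 was again the highest library and the other two lay below both controls. The log2 fold change of 0.50 (SE 0.55, edgeR adjusted p = 0.520) became −0.31 without OA-AP replicate 3 (adjusted p = 0.385, in a range of 0.0684 to 0.741 over the alternatives). The order turned on the scaling. As counts per 1000000 of the library total, Ppy was at 3.26 and 3.06 in the controls and at 5.05, 4.02 and 12.1 in OA-AP, all above both controls, and the log2 fold change with library totals alone was 1.17, not called.

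Sst (ENSMUSG00000004366, chromosome 16, 23889573 to 23890958) was at 13.9 and 13.3 CPM in the controls and at 13.5, 8.0 and 10.1 CPM in OA-AP. OA-AP replicate 1 lay between the controls, and the other two OA-AP libraries were lower. The log2 fold change was −0.37 with TMM and 0.35 with library totals alone (SE 0.23, edgeR adjusted p = 0.244 with TMM). With library totals OA-AP replicates 1 and 3 lay above both controls and replicate 2 between them.

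OA-AP replicate 3, the library with the highest Gcg and Ppy, also stood apart in markers of other cells. The 7 neutrophil genes summed to 0.943 and 1.89 CPM in the controls and to 12.4, 3.26 and 94.9 CPM in OA-AP, with S100a9 the most abundant per kb and Mpo at 2, 0 and 1 counts in OA-AP. edgeR called none of the 5 tested neutrophil genes (1 had an unadjusted p under 0.05), DESeq2 called 5, and library totals alone gave 1 up. The 11 ductal genes summed to 427 and 410 CPM in the controls and to 780, 597 and 1364 CPM in OA-AP, with Krt18 the most abundant per kb over the 5 libraries. Neither list's part in the hormone values was tested.

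Slc2a2 (ENSMUSG00000027690, chromosome 3, 28697903 to 28731359), the gene for the glucose transporter, had the lowest log2 fold change of the 10 genes under each of the 4 scalings. It was at 4.11 and 4.98 CPM in the controls and at 1.42, 0.914 and 0.731 CPM in OA-AP, from 48 and 50 counts against 27, 16 and 14. All 3 OA-AP libraries lay well below both controls. The mean fell from 4.55 ± 0.612 CPM in the controls (SD, n = 2) to 1.02 ± 0.354 CPM in OA-AP (SD, n = 3), 4.42-fold (log2 fold change −2.14, SE 0.37, edgeR adjusted p = 0.00394). Library totals alone gave −1.41, still called. Without control replicate 2 the adjusted p was 0.0527, the highest of its alternatives, which began at 1.10e-05.

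Adipose tissue, without islets, also held Slc2a2 counts, 14, 20 and 15 in its control and 10, 22 and 20 in its OA-AP libraries. As counts per 1000000 of the library total, this was 0.480 to 1.03. The OA-AP pancreas libraries were at 1.87, 1.13 and 0.812 on that scale and the control pancreas libraries at 3.26 and 3.48. OA-AP replicate 3 of the pancreas thus lay inside the adipose range. The tissues were counted apart, and no test was run between them. In adipose tissue Slc2a2 did not differ between groups by edgeR (log2 fold change 0.49, adjusted p = 0.338).

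Pdx1 (ENSMUSG00000029644, chromosome 5, 147269959 to 147275848), a homeodomain factor of beta cells that adult acinar cells express at a low level, was at 4.20 and 5.18 CPM in the controls and at 2.41, 2.34 and 2.25 CPM in OA-AP. The 3 OA-AP libraries lay close together, below both controls. The mean fell from 4.69 ± 0.692 CPM in the controls (SD, n = 2) to 2.33 ± 0.0833 CPM in OA-AP (SD, n = 3), 2.00-fold (log2 fold change −1.0, SE 0.27, edgeR adjusted p = 0.0243). With library totals alone the log2 fold change was −0.28 and not called (adjusted p = 0.493). The call was also lost with DESeq2 (adjusted p = 0.0503) and without control replicate 1 (0.0832), control replicate 2 (0.178) or OA-AP replicate 1 (0.0696), in a range of 0.0108 to 0.493 over the alternatives.

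Mafa (ENSMUSG00000047591, chromosome 15, 75745490 to 75748228), which activates insulin transcription in mature beta cells, was at 1.97 and 2.19 CPM in the controls and at 1.57, 1.37 and 0.522 CPM in OA-AP. On this scale the OA-AP libraries were all below both controls, and OA-AP replicate 3, with 10 counts, was the lowest. The log2 fold change of −0.85 was not called (SE 0.50, edgeR adjusted p = 0.223), and it was −0.11 with library totals alone. The separation was then lost, with 1.56 and 1.53 counts per 1000000 of the library total in the controls and 2.07, 1.69 and 0.580 in OA-AP. Nkx6-1 (ENSMUSG00000035187, chromosome 5, 101658139 to 101664996), needed for beta cell formation and identity, was at 1.46 and 1.89 CPM in the controls and at 1.42, 1.54 and 1.36 CPM in OA-AP. Its groups overlapped, with 17 to 27 counts in each library. The log2 fold change was −0.21 with TMM (SE 0.37, edgeR adjusted p = 0.683) and 0.50 with library totals alone, where all 3 OA-AP libraries lay above both controls.

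**Figure D2:**
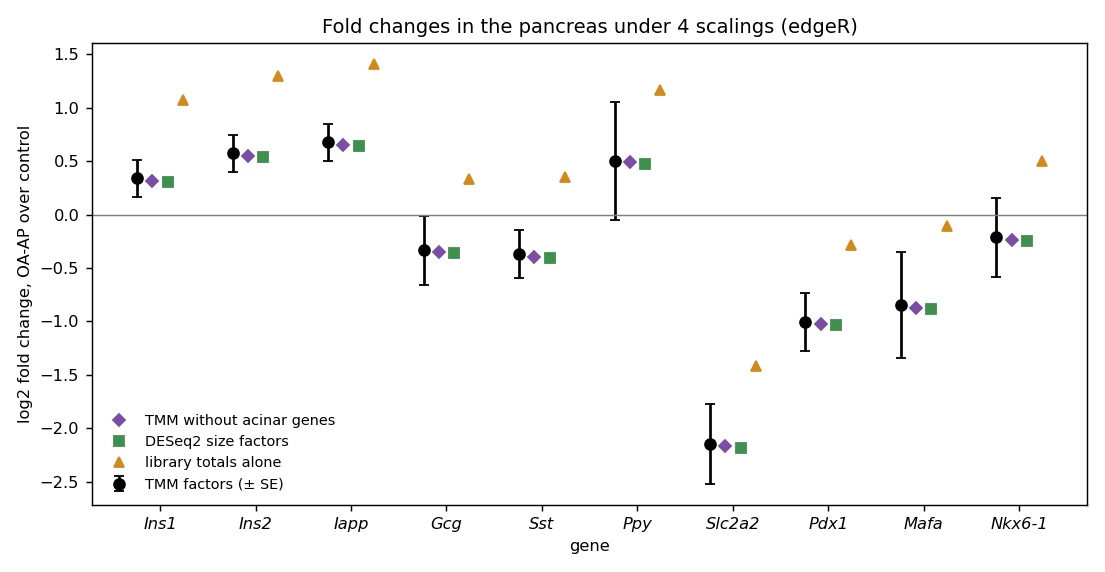
Log2 fold change (OA-AP over control) of the 10 islet genes in edgeR with TMM factors (circles, ± SE, the standard error), TMM factors computed without acinar genes (diamonds), DESeq2 size factors (squares) and library totals alone (triangles). Library totals move all 10 upward. Gcg, Sst and Nkx6-1 then change sign, while Iapp stays above 0 and Slc2a2 stays below 0 under all 4.

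A gene on the opposite strand overlaps 3 of the 10. Slco1a5 overlaps Iapp, Plut overlaps Pdx1 and 1700112D23Rik overlaps Slc2a2 in GENCODE M21, each with 0 exon bases shared with the islet gene. By this annotation, exon reads of an islet gene and its antisense partner fall on different bases. The strand setting of the counting is not stated, so any unspliced reads of a gene over an exon of its partner cannot be told apart. Slco1a5 had 0 to 8 counts in each pancreas library and 1700112D23Rik 0 or 1. Plut had 22 and 7 counts in the controls and 29, 33 and 17 in OA-AP.

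Levels of different genes were compared as CPM per kb of the deposited gene length. In the control pancreas the order ran from Ins2 at 469 ± 87.9 CPM per kb (SD, n = 2) and Ins1 at 236 ± 46.5 down through Gcg (74.9 ± 9.81), Iapp (59.8 ± 10.95), Sst (18.9 ± 0.529), Ppy (8.49 ± 0.379), Pdx1 (2.17 ± 0.321), Slc2a2 (0.790 ± 0.106), Mafa (0.760 ± 0.0567) and Nkx6-1 (0.534 ± 0.0981). The control libraries of neighbours in this order overlapped only for Slc2a2 and Mafa. In OA-AP, Ins2 (697 ± 75.8, SD, n = 3) and Ins1 (299 ± 38.7) again led, followed by Iapp (95.5 ± 12.3), Gcg (59.4 ± 25.3), Sst (14.6 ± 3.87), Ppy (12.0 ± 8.53), Pdx1 (1.08 ± 0.0386), Nkx6-1 (0.459 ± 0.0301), Mafa (0.422 ± 0.204) and Slc2a2 (0.177 ± 0.0616). Neighbours overlapped there for Iapp with Gcg, Sst with Ppy, Nkx6-1 with Mafa, and Mafa with Slc2a2. Gcg and Iapp nearly met in control replicate 2, at 67.9 and 67.6 CPM per kb.

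The 6 hormone genes together took 0.0738% and 0.0806% of all counts in the controls and 0.205%, 0.157% and 0.157% in OA-AP. The OA-AP share was higher in 3 of 3 libraries, 2.23-fold on average, with an exact permutation p of 0.1 (two-sided), the smallest that 2 against 3 samples can give. Counts outside the acinar list as denominator brought the difference to 1.24-fold, with shares of 0.408% and 0.487% in the controls and 0.633%, 0.527% and 0.513% in OA-AP. Set against the acinar genes themselves, there were 90.0 and 96.6 hormone counts per 100000 acinar counts in the controls and 304, 224 and 227 in OA-AP.

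Within the hormone counts, Ins2 made up 57.3% and 60.3% in the controls and 65.8%, 65.1% and 62.8% in OA-AP. Gcg made up 13.1% and 8.79% in the controls and 3.91%, 5.79% and 9.29% in OA-AP. The share of Ins2 was thus higher in each OA-AP library than in either control, as was that of Iapp, at 5.45% and 5.70% against 6.86%, 6.73% and 6.11%. The share of Sst was lower in each OA-AP library than in either control, at 1.49% and 1.16% against 0.869%, 0.628% and 0.711%. The share of Ins1 overlapped, with 22.2% and 23.6% in the controls and 22.4%, 21.5% and 20.3% in OA-AP.

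A ratio of counts between genes of 1 library does not move with the scaling, so 9 such ratios were compared, most of them per 1000 counts of Ins1 and Ins2 together. Slc2a2 was at 5.56 and 5.14 per 1000 insulin counts in the controls and at 1.03, 0.829 and 0.621 in OA-AP, 6.60-fold lower. Pdx1 was at 5.68 and 5.34 in the controls and at 1.76, 2.12 and 1.91 in OA-AP, 2.86-fold lower. Both ratios lay lower in each OA-AP library than in either control, with narrow spread within the groups. Mafa was at 2.67 and 2.26 in the controls and at 1.15, 1.24 and 0.443 in OA-AP. Nkx6-1 was at 1.97 and 1.95 in the controls and at 1.03, 1.40 and 1.15 in OA-AP. Relative to insulin, all 4 beta cell factors lay lower in each of the 3 OA-AP libraries, including Nkx6-1, whose CPM overlapped. The same held for 46.8% of the 12882 tested genes other than Ins1 and Ins2, and the median gene was 1.40-fold lower relative to insulin (ratio of the group means), so a lower ratio does not by itself set these factors apart.

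Among the hormones, Sst was at 18.8 and 13.8 per 1000 insulin counts in the controls and at 9.86, 7.25 and 8.56 in OA-AP, with no overlap. Gcg was at 165 and 105 in the controls and at 44.4, 66.9 and 112 in OA-AP, and Ppy at 5.56 and 4.52 in the controls and at 2.79, 2.95 and 9.27 in OA-AP. Both of these overlapped through OA-AP replicate 3. Iapp moved slightly the other way, from 68.6 and 67.9 to 77.9, 77.7 and 73.5 per 1000 insulin counts. Ins1 stood at 387 and 392 per 1000 Ins2 counts in the controls and at 340, 331 and 324 in OA-AP, 1.17-fold lower and without overlap. Of the 8 ratios to insulin, 6 did not overlap between the groups, beside 59.1% of the 12882 genes. These 6 and the ratio of Ins1 to Ins2 had an exact permutation p of 0.1 each, the smallest possible, and 0.129 after Benjamini-Hochberg adjustment over the 9. For Gcg the exact p was 0.3 (0.338 adjusted), and for Ppy 1 (1 adjusted). By this test no ratio could pass 0.05 with 2 against 3 samples.

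**Figure D3:**
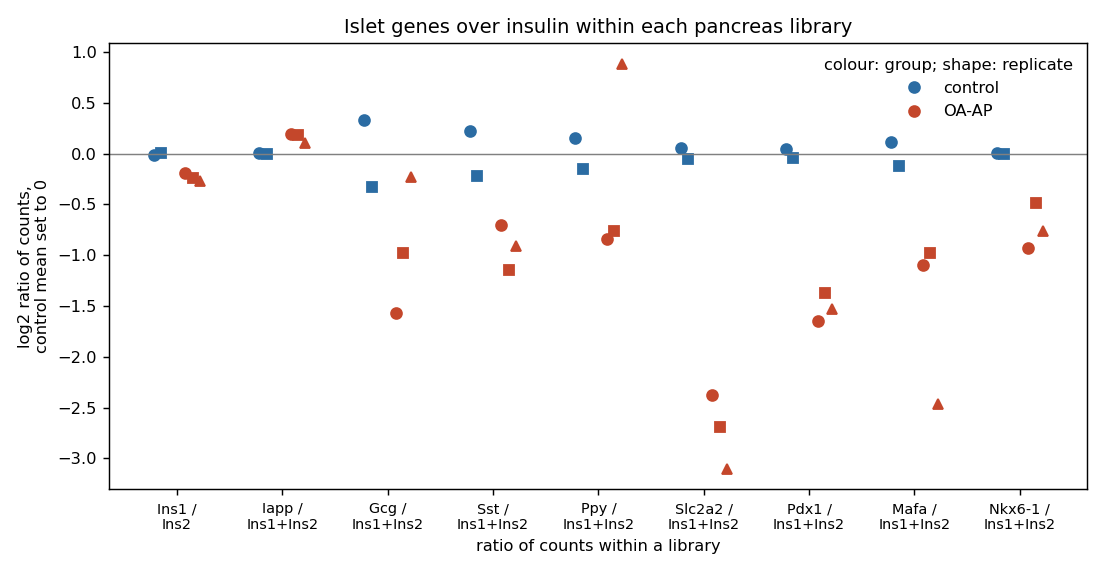
Log2 ratios of counts within each pancreas library, with the mean of the 2 control libraries set to 0 for each ratio. Colours give the group and shapes the replicate. Slc2a2, Pdx1, Mafa, Nkx6-1 and Sst over insulin lie lower in all 3 OA-AP libraries, Iapp over insulin lies slightly higher, and Gcg and Ppy overlap through OA-AP replicate 3.

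In adipose tissue the 6 hormone genes had 2 counts in all among the 139485233 counts of 6 libraries, 1 of Ins2 in control replicate 2 and 1 of Sst in OA-AP replicate 3. Ins1, Iapp, Gcg and Ppy were at 0 in every adipose library, which allows up to 3 counts over the 6 libraries or 0.0215 counts per 1000000, for counting error only. Pdx1 had 2 counts, both in control replicate 2, Nkx6-1 had 1 in each of 2 OA-AP libraries, and Mafa had 1 to 6 in every library. Control replicate 2 of the adipose tissue also carried acinar RNA, with 1.17% of its counts in the acinar list. Whether its Ins2 and Pdx1 counts go with that RNA was not tested. Mafa in adipose tissue was at 0.0480 to 0.280 counts per 1000000 of the library total, against 0.580 to 2.07 in the pancreas. The hormone levels of the pancreas were thus far above this background, and those of Slc2a2 and, in OA-AP replicate 3, of Mafa came nearest to it.

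Genes with the same profile as Ins2 over the 5 pancreas libraries were sought among the 12883 other tested genes, by the root mean square difference in log2 CPM centred on each gene's mean. Leaving out the 10 islet genes, the nearest were Sap30bp (0.0215), Prps1l3 (0.0483), Fam208a (0.0548), Tubgcp6 (0.0571) and AI464131 (0.0581). Iapp itself was at 0.0594, rank 6 of the 12883, and Ins1 at 0.116, rank 116. With 5 libraries many genes share such a profile, and 1856 genes lay within 0.25 of Ins2. Slc2a2 (1.31), Mafa (0.859), Pdx1 (0.760) and Gcg (0.671) lay furthest from Ins2 among the 10.

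Promoter sequence was looked at because Ins1, Ins2 and Iapp were higher in the same libraries while Slc2a2 was lower. RefSeq windows on GRCm38.p6 were available for 8 of the 10 genes, all but Ins2 and Mafa. The 250 bases before the RefSeq start were searched on both strands. The motifs were TAAT, the core bound by many homeodomain factors, the E-box CATCTG and the TATA box TATAAA. The TAAT core stood in 54.9% of all 32851 windows of this length, CATCTG in 14.4% and TATAAA in 12.4%. The Iapp window held 5 TAAT matches, 2 of which overlap each other, and 1 CATCTG, and the Ins1 window 3 TAAT and 1 CATCTG. Gcg had 2 of each of the 3 motifs. Sst and Slc2a2 had 1 TAAT each and neither of the others, Ppy had 1 TATAAA, and Pdx1 and Nkx6-1 had no match. By the gene coordinates given above, however, the Nkx6-1 window lies wholly inside the gene. The windows of Pdx1 and Sst, and the last bases of that of Iapp, also reach into their genes. A match is only a run of letters, and says nothing on binding. The windows of both beta cell hormones and of Slc2a2 are shown 5′ to 3′, with the matches in capitals.
Ins1, chr19:52264047-52264296, plus strand: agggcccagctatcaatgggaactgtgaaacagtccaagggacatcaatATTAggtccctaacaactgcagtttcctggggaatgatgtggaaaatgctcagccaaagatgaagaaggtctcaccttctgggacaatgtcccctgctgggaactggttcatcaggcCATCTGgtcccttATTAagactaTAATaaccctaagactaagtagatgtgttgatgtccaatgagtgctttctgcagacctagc
Iapp, chr6:142298175-142298424, plus strand: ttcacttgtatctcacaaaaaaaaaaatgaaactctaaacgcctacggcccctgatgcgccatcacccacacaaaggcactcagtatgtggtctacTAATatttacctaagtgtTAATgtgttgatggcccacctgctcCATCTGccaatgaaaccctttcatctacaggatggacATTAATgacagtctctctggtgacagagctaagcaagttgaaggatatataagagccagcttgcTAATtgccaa
Slc2a2, chr3:28697653-28697902, plus strand: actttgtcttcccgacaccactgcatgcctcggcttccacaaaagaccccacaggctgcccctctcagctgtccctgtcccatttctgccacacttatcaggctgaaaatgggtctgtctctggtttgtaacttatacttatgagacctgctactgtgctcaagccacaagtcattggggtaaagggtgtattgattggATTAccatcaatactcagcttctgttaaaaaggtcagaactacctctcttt

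Further genes of the islet were followed in 8 lists with 107 genes, of which 81 were tested, 10 called up and 10 called down. These 24.7% called compare with 29.8% of all tested genes, and the median log2 fold change was 0.09 against 0.04. With library totals alone 31 were up and 6 down, beside 5839 up and 506 down of all 12884 tested genes. Many are also expressed outside islets: 40 of the 107 had at least 10 counts in each adipose library, and acinar cells of the pancreas may express others, which was not tested.

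Hormones are cut from their precursors and stored in dense-core granules, and of 16 genes for this work 15 were tested, 2 called up and 2 down (median log2 fold change 0.19), or 7 up and 1 down with library totals alone. Chga, encoding the granule protein chromogranin A, was at 47.0 and 44.4 CPM in the controls and at 83.7, 77.8 and 75.8 CPM in OA-AP. It rose 1.73-fold, in 3 of 3 OA-AP libraries (log2 fold change 0.79, SE 0.13, edgeR adjusted p = 0.00279). Scg2, encoding secretogranin II, rose from 15.7 ± 3.10 CPM to 28.4 ± 8.27 CPM (SD, n = 2 and 3). The call of Chga was lost without control replicate 2 (adjusted p = 0.0544, in a range of 1.25e-06 to 0.0544 over the alternatives). The call of Scg2 was lost without control replicate 1 (0.238), control replicate 2 (0.102) or OA-AP replicate 1 (0.0841), in a range of 2.54e-06 to 0.238. Neurons hold these granule proteins too. The 10 genes of neurons and glia summed to 4.03 and 4.48 CPM in the controls and 3.67, 2.51 and 5.80 CPM in OA-AP, with Tubb3 the most abundant per kb, and none of the 4 tested was called by edgeR with TMM or by DESeq2 (0 had an unadjusted p under 0.05), while library totals alone gave 1 up.

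Ero1lb, an oxidase that supports disulfide formation in the endoplasmic reticulum of beta cells and acinar cells, was the most abundant of this list per kb and lay at 415 and 434 CPM in the controls and at 119, 173 and 89.4 CPM in OA-AP. It decreased by 1.74 on the log2 scale (SE 0.25, edgeR adjusted p = 0.00228). Ptprn2, encoding a membrane protein of the granule, was at 43.5 and 57.7 CPM in the controls and 22.9, 23.6 and 29.3 CPM in OA-AP (log2 fold change −1.0, adjusted p = 0.00385). This call was lost with library totals alone (−0.29, adjusted p = 0.155) and without control replicate 2 (adjusted p = 0.0605), in a range of 1.50e-07 to 0.155 over the alternatives.

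Glucose entry is coupled to secretion by ATP-sensitive potassium channels, calcium channels and the exocytosis machinery. Of 19 such genes 17 were tested, 1 called up and 3 down (median log2 fold change −0.21), or 6 up and 3 down with library totals alone (median 0.53). Cacna1a, a calcium channel subunit, was at 23.5 and 26.1 CPM in the controls and at 1.52, 1.94 and 1.20 CPM in OA-AP. It fell 15.9-fold, in 3 of 3 libraries (log2 fold change −3.99, SE 0.22, edgeR adjusted p = 4.25e-05). Rab3a, a small GTPase of secretory vesicles, fell by 2.82 and Cacna1d, another calcium channel subunit, by 1.54 on the log2 scale (adjusted p = 0.000221 and 0.000803). These 3 calls held under all alternatives, library totals included.

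Stx1a, encoding the membrane fusion protein syntaxin 1A, was at 3.60 and 2.39 CPM in the controls and at 17.0, 12.5 and 40.2 CPM in OA-AP. It was called up (log2 fold change 2.94, adjusted p = 0.0202) but OA-AP replicate 3 lay far above the others, and the call was lost without control replicate 1 (adjusted p = 0.0921), control replicate 2 (0.119) or the filter on low counts (0.143), in a range of 1.06e-08 to 0.143. Vamp2, the most abundant of the list per kb, was at 35.8 ± 3.27 and 31.1 ± 8.69 CPM (SD, n = 2 and 3) and was not called, with a log2 fold change of −0.21 that became 0.53 with library totals alone. At least 10 counts in every adipose library were found for 10 of the 19.

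Of 14 receptors through which hormones and nerves act on islet cells, 10 were tested, 2 called up and 1 down (median log2 fold change 0.14), or 3 up and 1 down with library totals alone, and Sstr5 was at 0. Galr1, a galanin receptor, was at 7.03 and 6.97 CPM in the controls and at 0.315, 0.686 and 0.0522 CPM in OA-AP, or 82 and 70 counts against 6, 12 and 1. It decreased by 4.31 on the log2 scale (SE 0.59, edgeR adjusted p = 0.00163). Adra2a, an adrenergic receptor that restrains insulin release, rose from 1.09 ± 0.275 CPM to 5.14 ± 1.28 CPM (SD, n = 2 and 3, adjusted p = 0.00319). Insr, the insulin receptor, rose from 43.3 ± 2.45 to 99.0 ± 10.5 CPM (adjusted p = 0.000870) and was among 5 of the 14 with at least 10 counts in each adipose library. All 3 calls held in each alternative fit where the gene was tested. Glp1r, the receptor of the incretin GLP-1, was at 11.7 and 11.4 CPM in the controls and at 8.91, 11.5 and 3.50 CPM in OA-AP and was not called. Its log2 fold change was −0.54 with TMM and 0.20 with library totals alone.

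No endocrine transcription factor was called by edgeR with TMM, among 10 tested of 19, while 2 had an unadjusted p under 0.05 and DESeq2 called 1. Library totals alone gave 3 up. Neurog3, Pax4 and Pou3f4 were at 0 in all 5 pancreas libraries. Nkx2-2, a factor of beta and alpha cells, was at 3.86 and 2.69 CPM in the controls and at 3.57, 2.97 and 2.30 CPM in OA-AP, with overlap. Its log2 fold change of −0.16 became 0.55 with library totals alone, and neither was called.

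Transcription factors that islets share with exocrine cells numbered 13, of which 12 were tested, 1 called up and 3 down (median log2 fold change −0.45), or 4 up and 0 down with library totals alone (median 0.27). Foxa2 was at 16.0 and 15.1 CPM in the controls and at 7.66, 7.89 and 4.60 CPM in OA-AP (log2 fold change −1.22, edgeR adjusted p = 0.00692). Gata4 fell from 35.3 ± 1.02 to 20.2 ± 1.61 CPM (SD, n = 2 and 3). With library totals alone the log2 fold changes of Foxa2 and Gata4 were −0.49 and −0.10 and not called (adjusted p = 0.184 and 0.658, the highest of each gene's alternatives, which began at 9.06e-07 and 0.000104). Foxa2 also lost the call without control replicate 1 (−1.17) or control replicate 2 (−1.25).

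Foxa3 rose from 9.46 ± 0.417 CPM to 15.1 ± 2.09 CPM (SD, n = 2 and 3, log2 fold change 0.68), and was not called without control replicate 1 (0.64), control replicate 2 (0.72) or OA-AP replicate 3 (0.52). The most abundant per kb were the acinar factors Ptf1a, at 13.0 ± 2.73 and 13.9 ± 2.14 CPM, and Nr5a2, at 41.3 ± 8.0 and 41.3 ± 4.10 CPM, neither called with TMM. Both were called up with library totals alone (log2 fold changes 0.79 and 0.71).

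Of 8 genes of beta cell maturity 6 were tested, and 2 were called up (median log2 fold change 0.72), or 3 with library totals alone. Entpd3, a nucleotidase on the beta cell surface, was at 2.06 and 1.69 CPM in the controls and at 7.13, 6.17 and 8.41 CPM in OA-AP. It rose 3.84-fold, in 3 of 3 libraries (log2 fold change 1.94, SE 0.27, edgeR adjusted p = 0.00159). Glis3, a transcription factor of beta cells, rose from 1.54 ± 0.488 CPM to 4.08 ± 0.437 CPM (SD, n = 2 and 3, log2 fold change 1.39), and was not called without control replicate 2 (1.11) or OA-AP replicate 1 (1.31). Adipose tissue, without islets, held 2, 3 and 1 counts of Entpd3 in its control and 30, 24 and 27 in its OA-AP libraries. For Glis3 these were 390, 229 and 401 in the control and 77, 145 and 124 in the OA-AP libraries. The pancreas values of Entpd3 and Glis3 thus cannot be assigned to beta cells. Ovol2 (4.93 ± 0.780 and 2.66 ± 0.742 CPM) and Nnat (1.32 ± 0.316 and 3.34 ± 1.73 CPM) were the most abundant per kb and were not called. Ovol2 was called without OA-AP replicate 2 (log2 fold change −1.14) or replicate 3 (−0.89), and Nnat with library totals alone (2.01), without the filter on low counts (1.40) or without OA-AP replicate 2 (1.66). Ucn3, a peptide of mature beta cells, had 6 and 13 counts in the controls and 22, 22 and 9 in OA-AP and was not called, and it is named here outside the rule for named genes, after its values were seen.

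Of 10 genes listed here as low in mature beta cells or rising when these lose their identity, 6 were tested and 2 called up (median log2 fold change 0.50). With library totals alone 3 were called up. Gast, Cck and Tph1 were at 0 in every pancreas library. That each listed gene has this trait was not tested. Txnip, a glucose-responsive regulator of redox balance, was at 286 and 214 CPM in the controls and at 1102, 1039.7 and 1138 CPM in OA-AP. It rose 4.37-fold, in 3 of 3 libraries (log2 fold change 2.13, SE 0.18, edgeR adjusted p = 0.000208). Ldha, encoding a lactate dehydrogenase subunit, rose from 21.6 ± 0.987 CPM to 56.8 ± 10.8 CPM (SD, n = 2 and 3, adjusted p = 0.00132). Both calls held under all alternatives. Both genes are broadly expressed, as were 6 of the 10 by the adipose counts, so that these values cannot be assigned to beta cells.

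Among 8 genes of other islet cells 5 were tested and 1 was called down (median log2 fold change −0.54), or 2 up and 1 down with library totals alone (median 0.16). Slc38a5, an amino acid transporter of alpha cells that acinar cells also express, was at 59.7 and 83.6 CPM in the controls and at 8.07, 11.4 and 9.14 CPM in OA-AP. It fell 7.51-fold, in 3 of 3 libraries (log2 fold change −2.91, SE 0.20, edgeR adjusted p = 9.91e-05), and remained called under all alternatives. Pyy, encoding peptide YY, was at 7.97 and 6.87 CPM in the controls and at 7.45, 10.4 and 16.7 CPM in OA-AP, highest in OA-AP replicate 3 as were Gcg and Ppy, and was not called (log2 fold change 0.63, edgeR adjusted p = 0.186). It was called with library totals alone (1.30) and without the filter on low counts (0.70).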

How the data were processed

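RNA was sequenced from 5 pancreas and 6 adipose libraries. According to the study's methods and the submitters' processing notes, reads were trimmed with Trim Galore 0.6.6, checked with fastp 0.20.1, mapped to GRCm38 and counted per gene with featureCounts 2.0.1, and the authors deposited whole-number counts without normalization. Annotation release and strand setting are not given in the sources used here. The deposited gene length, in bases, served only for levels per kb.

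Samples were grouped by their labels. Counts within each group differed by more than counting noise (lowest chi-square per degree of freedom 7.56), so none was taken for a repeat deposit of another. This does not show that they come from separate animals. Each tissue was fitted apart in edgeR 4.0.16 (filterByExpr, TMM, robust quasi-likelihood test, Benjamini-Hochberg over all genes tested), which was tested on simulated data. The simulated data held 200 changed genes, as many up as down, drawn at random. They held no shift of the acinar genes as a list, so they do not test the scaling used here. Standard errors are the size of the log2 fold change over the square root of F. The common biological coefficient of variation in the pancreas was 0.214. Log2 CPM used a prior count of 2. Shares and ratios were compared by exact permutation over samples.

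The genes and lists were chosen with earlier results of these data known. The text names all 10 islet genes, up to 4 called genes with the smallest p and the 2 most abundant per kb of each list, and the 5 nearest to Ins2. Some genes of the lists are counted but not reported by name here. Alternatives were DESeq2 1.42.0, edgeR with the size factors of DESeq2 or with library totals alone, TMM without acinar genes, no filter, at least 10 counts in every library, a fold change of 2 or none, each library left out, the replicate number as a block, other denominators and 0.5 added to counts.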

Additional observations from a re-analysis of the deposited data

How the results depend on the processing

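Library totals alone gave 6345 calls in the pancreas in place of 3834, 3 islet genes up in place of 1 and 1 down in place of 2, and 31 up and 6 down in the other lists in place of 10 and 10. They reversed the log2 fold changes of Gcg (0.34), Sst (0.35), Nkx6-1 (0.50), Vamp2 (0.53), Glp1r (0.20) and Nkx2-2 (0.55). A fold change of 2 left 2464 calls and 0 islet genes up. No fold threshold and no filter on low counts each gave 2 islet genes up, and DESeq2 gave 1 down. With 1 library left out, calls ranged from 1495 to 4266, islet genes up from 0 to 2 and down from 0 to 3, and other listed genes up from 5 to 12 and down from 7 to 16. Fits with 1 control have no replicate in that group. With 1 library left out, Ppy ranged from −0.31 (without OA-AP replicate 3) to 0.79, and its log2 ratio to insulin from −0.805 to 0.061 (0.020 without OA-AP replicate 2). Small values that changed sign were Nkx2-2 (−0.39 to 0.14, the latter without control replicate 1), Ptf1a (−0.10 without control replicate 2 and −0.034 without OA-AP replicate 2, up to 0.33) and Nr5a2 (−0.035 with DESeq2 size factors, −0.026 with TMM without acinar genes, and −0.18, −0.033 and −0.062 without control replicate 2, OA-AP replicate 1 and OA-AP replicate 2, up to 0.22). The causes were not tested. The hormone share and the other 8 ratios kept their direction under their 6 or 7 alternatives each, although their exact permutation test cannot give a p under 0.1 with these samples. Slc2a2, Mafa and Nkx6-1 rest on at most 50 counts in any library, which limits their precision.

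With the replicate number as a block there were 4101 calls and 2 islet genes up (Iapp and Ins2) and 3 down (Gcg, Pdx1 and Slc2a2), and Ppy (−0.26) and Nkx2-2 (0.0048) changed sign. Of the other genes named, Foxa3 lost its call (0.57, below the fold threshold). OA-AP replicate 3 has no control of the same number, so in this fit it adds nothing to the comparison. With the block Gcg was at −0.73 and Ppy at −0.26, close to −0.78 and −0.31 without that library. A number shared by a control and an OA-AP library does not mark a shared animal. Deviations of same-numbered libraries correlated across genes at 0.0015 and −0.041. With 2 controls these deviations are mirror images of each other, so the correlations cannot decide whether the number marks a pairing.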

Other observations

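Adipose control replicate 2 carried pancreatic enzyme RNA but almost no islet hormone RNA. The acinar list took 1.17% of its counts, or 263551 counts, against 0.0186% to 0.0260% in the other 5 adipose libraries. It held 1 hormone count. At the control pancreas ratio of hormone to acinar counts, 246 would go with that many acinar counts. These values are given without a test.

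The 6 endothelial genes summed to 100 and 123 CPM in the controls and to 81.9, 79.3 and 95.9 CPM in OA-AP, with Plvap the most abundant per kb. Called down were 2 of 6 and called up 0, or 33.3% of those tested. Of all tested genes 29.8% were called in either direction and 13.5% down. The OA-AP libraries were lower on this scale but higher with library totals alone, at 79.6 and 85.7 counts per 1000000 in the controls and 108, 97.8 and 107 in OA-AP, and the calls were then 1 up and 0 down. The 8 macrophage genes summed to 54.9 and 29.3 CPM and to 43.4, 44.9 and 47.4 CPM, with C1qb the most abundant per kb and 1 of 8 called down (3 up and 0 down with library totals alone). The 8 fibroblast and stellate genes summed to 152 and 94.6 CPM and to 112, 133 and 81.1 CPM, with Dcn the most abundant per kb, and edgeR called none of 8 (1 had an unadjusted p under 0.05, and DESeq2 called 0), while library totals alone gave 2 up. The 6 adipocyte genes summed to 23.9 and 37.9 CPM and to 37.1, 37.3 and 70.7 CPM, highest in OA-AP replicate 3, the library with the highest Gcg and Ppy, and nearly all of it Fabp4, which endothelial cells and macrophages also express, while Adipoq had 0 or 1 counts in every library. The 1 adipocyte gene tested was called up with library totals alone and not with TMM. The 6 lymphocyte genes stayed at 1.03 and 0.299 CPM in the controls and 0.524, 0.457 and 0.522 CPM in OA-AP, with Cd79a the most abundant per kb, and none passed the filter. The part of these cells in the islet values was not tested.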
